A study of Mus musculus with 6 samples.

Results

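The CDK inhibitor family comprises 7 genes, and all 7 were found among the 49315 genes counted, by matching the gene identifiers to symbols in the GENCODE mouse annotation. They are the 3 Cip/Kip genes Cdkn1a, Cdkn1b and Cdkn1c and the 4 Ink4 genes Cdkn2a, Cdkn2b, Cdkn2c and Cdkn2d. Their RNA was counted in 6 bulk RNA-seq libraries from mouse bone marrow. WT and ING4-/- mice each gave 1 library of long-term haematopoietic stem cells (LT-HSC), 1 of short-term haematopoietic stem cells (ST-HSC) and 1 of multipotent progenitors (MPP). WT controls were young adult C57BL/6 mice, and ING4-/- mice lack the chromatin reader ING4 in every tissue, at an age not given in the sources used here. For each genotype the marrow of 8 to 10 mice was pooled, depleted of lineage-positive cells and sorted into the 3 populations at 1000 to 10000 cells each, so that no population has a replicate within a genotype. The labels name no treatment. In the test of genotype the 3 populations stand in for replicates, and p-values measure only the spread between these libraries.

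Progression from G1 into S phase is driven by cyclin-dependent kinases (CDKs), and the family restrains them in different ways. Ink4 proteins bind CDK4 and CDK6 and keep D-type cyclins from joining them, while Cip/Kip proteins bind assembled cyclin-CDK complexes, including those of CDK2. Cdkn1a encodes p21, a p53 target, Cdkn1b encodes p27, and Cdkn1c encodes p57, an imprinted gene product that is abundant in quiescent stem cells. Cdkn2b encodes p15, Cdkn2c encodes p18 and Cdkn2d encodes p19Ink4d, while Cdkn2a encodes both p16Ink4a and p19Arf. In bone marrow the family is known for holding stem cells out of the cell cycle.

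RefSeq promoter windows of build GRCm38.p6 (300 bases each, mostly upstream of a gene start) were found for 6 of the 7 members, Cdkn1c having no entry. The windows below belong to the members with the highest WT levels in each family, Cdkn1a (both starts) and Cdkn2d, and to Cdkn2c, whose counts differed most among ING4-/- libraries. Capitals mark a GC box, GGGCGG on either strand, or a paired p53 core, which is CATG, 6 bases of any kind and CATG again.
Cdkn1a upstream start, chr17:29090729-29091028, plus strand: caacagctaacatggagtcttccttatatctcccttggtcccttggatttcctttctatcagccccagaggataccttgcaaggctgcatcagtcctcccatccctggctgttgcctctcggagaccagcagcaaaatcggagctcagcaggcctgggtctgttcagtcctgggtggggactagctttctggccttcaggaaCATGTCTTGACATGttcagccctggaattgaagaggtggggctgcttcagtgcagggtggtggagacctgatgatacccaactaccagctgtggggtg
Cdkn1a downstream start, chr17:29093519-29093818, plus strand: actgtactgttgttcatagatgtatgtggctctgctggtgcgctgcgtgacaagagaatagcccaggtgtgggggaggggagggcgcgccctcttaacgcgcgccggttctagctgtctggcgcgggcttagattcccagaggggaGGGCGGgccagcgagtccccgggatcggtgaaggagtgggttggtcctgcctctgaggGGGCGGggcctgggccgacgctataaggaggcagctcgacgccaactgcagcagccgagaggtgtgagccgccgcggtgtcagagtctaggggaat
Cdkn2d, chr9:21291160-21291459, minus strand: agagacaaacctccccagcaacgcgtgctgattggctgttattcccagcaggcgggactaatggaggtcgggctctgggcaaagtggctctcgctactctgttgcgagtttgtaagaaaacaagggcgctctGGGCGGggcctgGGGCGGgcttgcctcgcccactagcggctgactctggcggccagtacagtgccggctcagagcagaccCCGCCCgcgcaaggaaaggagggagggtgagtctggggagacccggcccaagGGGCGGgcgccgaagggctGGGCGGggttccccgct
Cdkn2c, chr4:109666707-109667006, minus strand: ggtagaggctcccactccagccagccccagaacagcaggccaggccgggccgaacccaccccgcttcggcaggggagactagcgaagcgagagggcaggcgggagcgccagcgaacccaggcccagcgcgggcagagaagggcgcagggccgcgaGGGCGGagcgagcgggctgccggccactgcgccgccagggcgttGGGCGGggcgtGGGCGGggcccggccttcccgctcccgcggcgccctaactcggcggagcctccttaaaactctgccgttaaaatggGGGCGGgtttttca
The upstream Cdkn1a window was the only one of the members' 9 windows with a paired p53 core, which 0.712% of 32851 mouse promoter windows of this length hold. Its downstream window held 2 GC boxes and the Cdkn2d window 5. The Cdkn2c window printed here held 4, and a second Cdkn2c window (chr4:109665323-109665622) held 0. Of all mouse windows, 35.7% held at least 1. These are matches of letters, and no binding was measured.

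The 3 WT libraries held between 7839326 and 9363442 counts and the 3 ING4-/- libraries between 35596876 and 39192588. Counts were spread over 36082 to 41763 genes in WT and 14680 to 16188 in ING4-/- libraries. In the WT libraries, 1429 olfactory and vomeronasal receptor genes, which blood cells are not known to use, carried 18.1 to 22.7 counts per kb of exon, against at most 0.0853 in ING4-/- libraries. This density is used here as the background of a library, and it is completely confounded with genotype. Ing4 itself had 247, 162 and 247 counts in the WT LT-HSC, ST-HSC and MPP libraries, of which background accounts for 119, 121 and 96.3. Per kb these WT counts lay at the 86.3, 73.4 and 93.0th percentiles of the receptor genes, so WT Ing4 was not clearly above background. In the ING4-/- LT-HSC, ST-HSC and MPP libraries Ing4 had 0, 24 and 76 counts, where background predicts 0.454, 0.369 and 0.206. Some Ing4 reads thus remained in ING4-/- ST-HSC and MPP. Of the 8 stem and progenitor markers, 7 stood above background in every library. Summed levels of 6 erythroid markers were 16.0 to 22.2 CPM (counts scaled to library size) in WT and 82.9 to 143.5 in ING4-/- libraries, with Alas2 at 0 in the latter, and 6 granulocyte markers summed to 28.1 to 31.4 and 49.5 to 72.4. T and NK cell markers (5 genes) summed to 78.0 to 147.9 and 61.5 to 295.1, with Cd3e and Cd3g at 0 in ING4-/-. Stromal markers (5 genes) summed to 103.9 to 124.3 and 36.7 to 73.5, with Lepr at 0 in ING4-/-. The part of these cell types and of depth in the results below was not tested.

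Which members stood above this background was asked first. Cdkn1a and Cdkn2d exceeded the 95th percentile of the receptor genes in all 3 WT libraries, and the other 5 members did so in none. In ING4-/- libraries, where the background predicts less than 1 count for every member, 5 of the 7 members were counted and Cdkn2a and Cdkn2b were not.

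**Figure D1:**
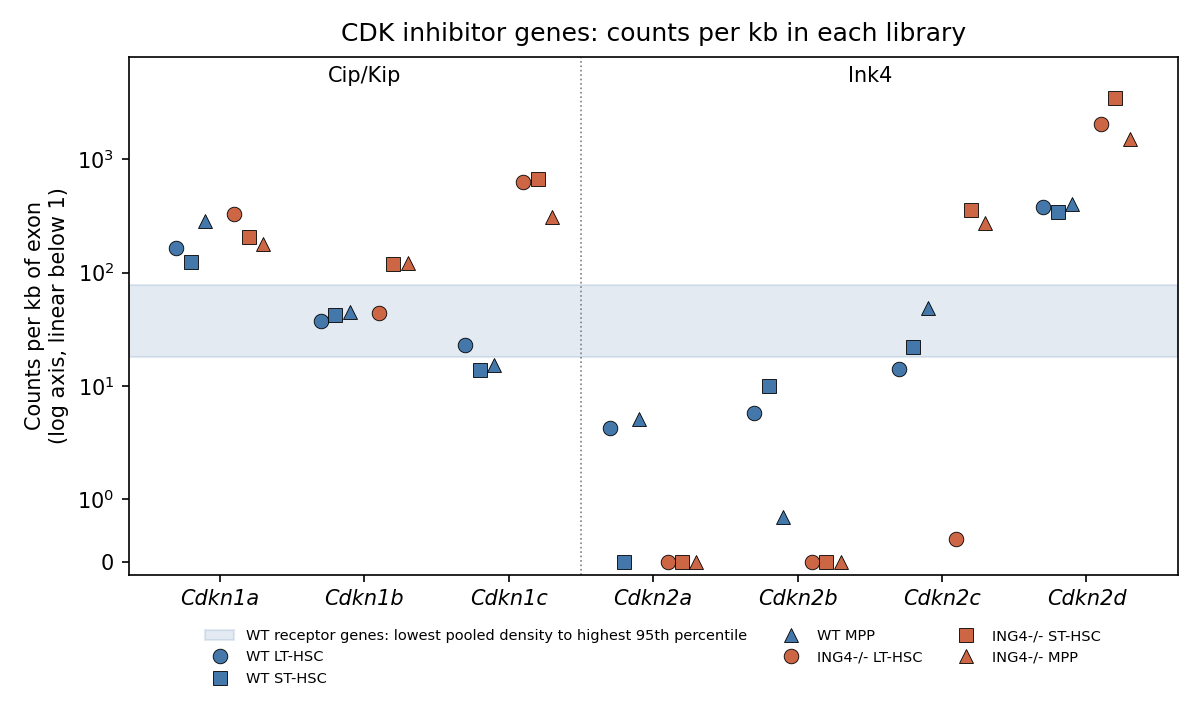
Counts per kb of exon (log axis, linear below 1, not scaled for depth) of the 7 members in each library, WT and ING4-/- in LT-HSC, ST-HSC and MPP, with a shaded band from the lowest receptor-gene density to the highest 95th percentile of the WT libraries. WT Cdkn1a and Cdkn2d lie above the band in all 3 populations, whereas Cdkn2a and Cdkn2b are at 0 in every ING4-/- library.

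ING4-/- libraries held less Cdkn1a and more Cdkn1c than WT libraries, and no other member passed the test. In such bulk samples, fewer cells that use a gene and less RNA per cell cannot be told apart. Of the 7 members, 5 passed the filter on low counts, 1 was called higher and 1 lower (edgeR's quasi-likelihood test, Benjamini-Hochberg adjusted p under 0.05 and a change of more than 1 on the log2 scale). Over the 31001 genes tested, 7.98% were called higher and 56.7% lower, and 64.6% in either direction, with a median log2 fold change of -6.85. The members' share is thus read against a background in which lower calls are the rule. When each library had to hold 10 counts or more of a gene, 9673 genes were tested, with 18.0% called in either direction (8.30% higher, 9.68% lower) around a median of 0.02, and neither Cdkn1a nor Cdkn1c changed its call.

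Of the Cip/Kip genes, Cdkn1a (chr17:29090979-29100722, plus strand, build mm10) had 369, 277 and 638 counts in the WT LT-HSC, ST-HSC and MPP libraries. Background predicts 49.8, 50.6 and 40.2 of these. ING4-/- libraries had 730, 460 and 402 counts, from deeper libraries. As RPKM, the count divided by exonic length and scaled library size, Cdkn1a stood at 17.5, 13.4 and 28.2 in WT and at 10.5, 6.54 and 5.33 in ING4-/-. Its WT level was highest in MPP and its ING4-/- level lowest there. The genotypes did not overlap, as for 62.9% of the genes tested in this direction. The mean was 19.7 ± 7.61 RPKM in WT and 7.46 ± 2.70 in ING4-/- (SD, n = 3). Cdkn1a fell by 1.40 on the log2 scale (SE 0.476, 95% interval -2.53 to -0.27, edgeR adjusted p = 0.0340), lower in 3 of 3 populations. With population as a block the value was -1.38 and the call was lost (edgeR adjusted p = 0.102). Leaving out single libraries gave -1.70 to -1.17, and the call held only without the WT ST-HSC library or without the ING4-/- LT-HSC library. It was lost without the WT LT-HSC (edgeR adjusted p = 0.0666), the WT MPP (0.118), the ING4-/- ST-HSC (0.0773) or the ING4-/- MPP library (0.0825). With background subtracted from every gene, where 5.61% of 19741 genes were called higher and 38.7% lower (44.3% in either direction), the value was -2.01 (SE 0.515, edgeR adjusted p = 0.0141).

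Cdkn1c (chr7:143458339-143461050, minus strand) went the other way, with 1295, 1361 and 638 counts in the ING4-/- LT-HSC, ST-HSC and MPP libraries. The WT libraries had 47, 28 and 31, and background alone predicts 45.7, 46.4 and 36.9. Cdkn1c was therefore not distinguishable from background in any WT library. Its RPKM was 20.3, 21.1 and 9.22 in ING4-/- and 2.43, 1.48 and 1.49 in WT, with no overlap (12.0% of the genes tested in this direction). The ING4-/- MPP library was the lowest of its genotype. Cdkn1c rose by 3.23 on the log2 scale (SE 0.576, 95% interval 1.86 to 4.59, edgeR adjusted p = 0.00174), higher in 3 of 3 populations. The call held with population as a block (3.17, edgeR adjusted p = 0.0369) and without each library in turn (2.98 to 3.55). After subtraction of background the WT level is close to 0 and the fitted value grows to 8.99 (SE 1.37, edgeR adjusted p = 0.00216), a size set by the prior count and not a bound. With both the subtraction and the block, a combination chosen after seeing the data, it was not called (9.32, edgeR adjusted p = 0.0681). Of its 2039 exonic bases, 30.7% overlap Gm44732 on the opposite strand, and the strand setting of the counting is not given in the sources used here.

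The ratio of Cdkn1c to Cdkn1a within a library does not depend on scaling between libraries. Per length it was 0.139, 0.110 and 0.0530 in the WT LT-HSC, ST-HSC and MPP libraries and 1.93, 3.23 and 1.73 in the ING4-/- libraries. Every ING4-/- library thus held more Cdkn1c than Cdkn1a RNA and every WT library less, with WT Cdkn1c as counted.

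Cdkn1b (chr6:134920401-134925513, plus strand), the longest transcript set of the family at 4552 exonic bases, was close to WT background. It had 172, 191 and 203 counts in the WT LT-HSC, ST-HSC and MPP libraries, where background predicts 102, 104 and 82.4. The ING4-/- libraries had 199, 538 and 553. As RPKM these are 3.98, 4.52 and 4.38 in WT and 1.40, 3.74 and 3.58 in ING4-/-. The ING4-/- LT-HSC library stood well below the other two of its genotype. The fitted value was -0.56 (SE 0.542, 95% interval -1.85 to 0.72, edgeR adjusted p = 0.402), and groups did not overlap, as for 62.9% of the genes tested in this direction. Its direction within populations hung on background and scaling together. The log2 ratio of ING4-/- to WT was -1.51, -0.27 and -0.29 in LT-HSC, ST-HSC and MPP as counted. Subtraction on the same scaling gave -0.21, 0.86 and 0.46, and subtraction with scaling refitted to the subtracted counts gave -0.99, -0.09 and -0.26. The background-subtracted fit over all genes gave -0.35 (SE 0.698, edgeR adjusted p = 0.732). It also turned to 0.028 under upper-quartile scaling.

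Among Ink4 genes, Cdkn2d (chr9:21288410-21291407, minus strand) had the highest level of the whole family in every library. It had 600, 535 and 631 counts in the WT LT-HSC, ST-HSC and MPP libraries, with 35.3, 35.8 and 28.5 predicted from background, and 3220, 5501 and 2369 in ING4-/-. Its RPKM was nearly even across WT populations, at 40.1, 36.6 and 39.3, and uneven in ING4-/- at 65.4, 110.5 and 44.4. The groups did not overlap (12.0% of the genes tested in this direction), and the means were 38.7 ± 1.86 in WT and 73.4 ± 33.8 in ING4-/- (SD, n = 3). The fitted value of 0.92 (SE 0.354, 95% interval 0.08 to 1.76, edgeR adjusted p = 0.0531) did not pass, although Cdkn2d was higher in 3 of 3 populations as counted. The size of the fitted value hung on scaling and background, and its direction turned in 1 of 21 alternatives. It was 1.53 under upper-quartile scaling, 0.18 with background subtracted from every gene (SE 0.349, edgeR adjusted p = 0.718) and -0.22 with a trend on exonic length removed. Within LT-HSC, ST-HSC and MPP the log2 ratio of ING4-/- to WT was 0.70, 1.59 and 0.17 as counted. With scaling refitted to background-subtracted counts it was 0.01, 0.74 and -0.48, so that the direction in MPP turned.

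Cdkn2c (chr4:109660876-109667189, minus strand) had 961 and 734 counts in the ING4-/- ST-HSC and MPP libraries and 1 in the ING4-/- LT-HSC library. The exact Poisson 95% interval of that single count, 0.0253 to 5.57, covers counting error only. WT libraries had 38, 59 and 132, where background predicts 60.2, 61.1 and 48.6, so that only the WT MPP count was well above its prediction, at the 94.1th percentile of receptor genes. Its RPKM was 0.0119, 11.3 and 8.06 in the ING4-/- LT-HSC, ST-HSC and MPP libraries and 1.49, 2.36 and 4.82 in WT. The genotypes overlapped, and the fitted value was 1.16 (SE 1.58, 95% interval -2.58 to 4.90, edgeR adjusted p = 0.555). It turned to -0.12 with population as a block (edgeR adjusted p = 0.965), and was called higher only without the ING4-/- LT-HSC library (1.77, edgeR adjusted p = 0.0375). In a count added after seeing the data, 99 of 1362 protein-coding genes (7.27%) with 500 to 1500 counts in both other ING4-/- libraries had 3 counts or fewer in the ING4-/- LT-HSC library. The same held for 32 of 1244 genes (2.57%) in the ST-HSC library and for 8 of 1194 (0.67%) in the MPP library.

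Cdkn2a (chr4:89274471-89294653, minus strand) and Cdkn2b (chr4:89306289-89311032, minus strand) had no count in any ING4-/- library. A floor set at 3 counts stands for 0.0818 RPKM of Cdkn2a and 0.0688 of Cdkn2b in the ING4-/- LT-HSC library. The exact Poisson 95% interval of a count of 0 reaches somewhat higher, to 3.69 counts. In WT, Cdkn2a had 5, 0 and 6 counts against 26.3, 26.7 and 21.2 predicted, and Cdkn2b had 8, 14 and 1 against 31.2, 31.7 and 25.2. Both lay below background in all 6 libraries, were left out of the reported test by the filter on low counts, and were not detectable at this depth. Some alternatives did test Cdkn2b and called it lower, with no filter (edgeR adjusted p = 0.0159), without the WT MPP library (0.00781) and without both MPP libraries (0.00960), and Cdkn2a was tested with no filter and not called (edgeR adjusted p = 0.0535). Their WT counts lie below background, and the fitted sizes against 0 counts are set by the prior count. Cdkn2a counts join the transcripts of p16Ink4a and p19Arf.

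**Figure D2:**
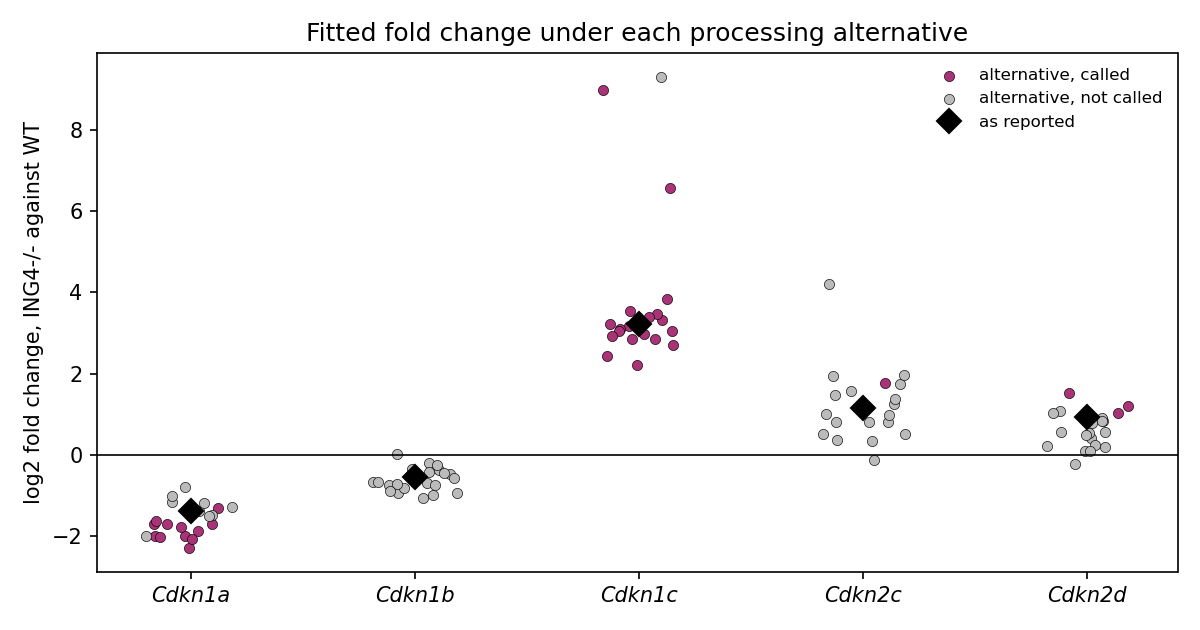
Log2 fold change of ING4-/- against WT for the 5 tested members under each alternative analysis, as small points, with the values as reported. Cdkn1c stays above 0 and Cdkn1a below 0 in every alternative that tested them, whereas Cdkn1b, Cdkn2c and Cdkn2d each cross 0 in 1 alternative.

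Cip/Kip and Ink4 totals were then compared in each population, as summed RPKM after subtraction of background, which made up 14.8 to 32.8% of WT Cip/Kip counts and 9.22 to 14.7% of WT Ink4 counts. Ink4 exceeded Cip/Kip in all 6 libraries. In WT the Ink4 sum was 37.8, 34.1 and 40.6 RPKM in LT-HSC, ST-HSC and MPP, and the Cip/Kip sum 16.8, 13.0 and 29.0. In ING4-/- the Ink4 sum was 65.4, 121.8 and 52.4 and the Cip/Kip sum 32.2, 31.4 and 18.1. The log2 ratio of Cip/Kip to Ink4 was -1.17, -1.39 and -0.49 in WT, a mean of -1.01 ± 0.471, and -1.02, -1.96 and -1.53 in ING4-/-, a mean of -1.50 ± 0.468 (SD, n = 3). These ranges overlapped. The difference between genotypes was 0.15 in LT-HSC, -0.57 in ST-HSC and -1.05 in MPP, each from 1 library per genotype and therefore untested. Without subtraction the LT-HSC difference was -0.18.

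**Figure D3:**
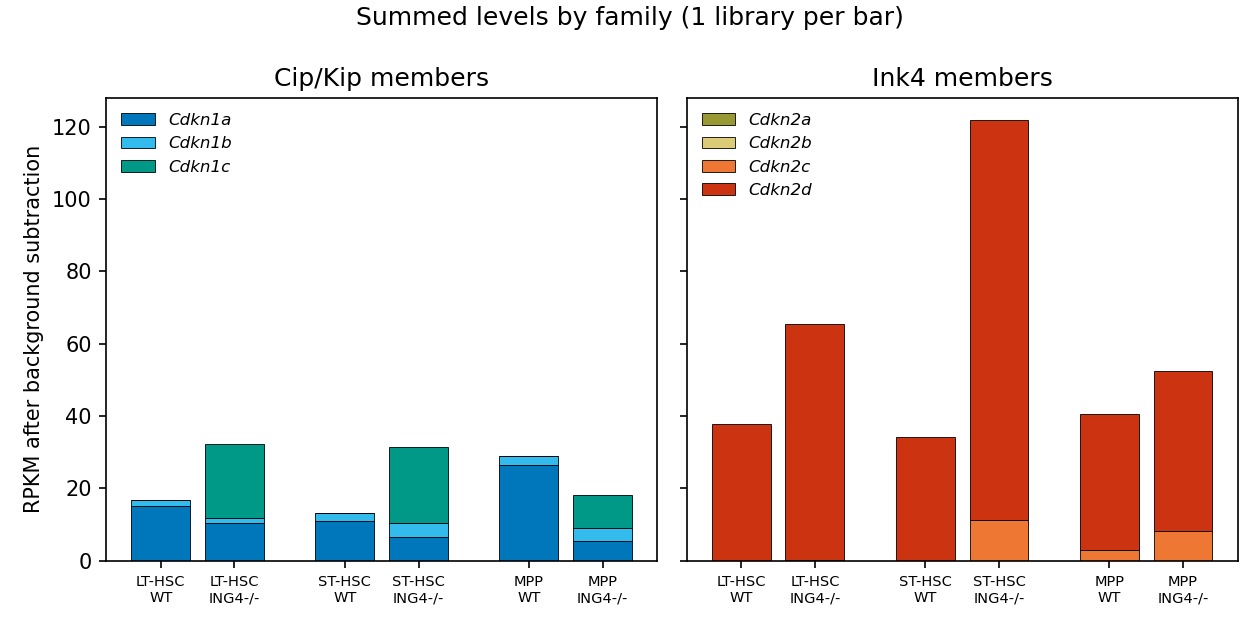
Summed Cip/Kip and Ink4 levels (RPKM after subtraction of background) of each library, split by member, for WT and ING4-/- LT-HSC, ST-HSC and MPP. Cdkn2d fills nearly all of Ink4 in every bar, while Cip/Kip is mostly Cdkn1a in WT and mostly Cdkn1c in ING4-/-.

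The 2 families differed in how their makeup held between genotypes. Cdkn2d made up 100, 100 and 92.5% of the WT Ink4 sum and 99.99, 90.7 and 84.6% of that of ING4-/- LT-HSC, ST-HSC and MPP. Cdkn1a made up 89.96, 84.1 and 91.0% of the WT Cip/Kip sum but 32.6, 20.8 and 29.4% of the ING4-/- sum. Cdkn1c made up 63.1, 67.3 and 50.9% in ING4-/- and, as counted without subtraction, 10.2, 7.62 and 4.38% in WT. In LT-HSC and ST-HSC the Cip/Kip sum was higher in ING4-/- by 0.94 and 1.27 on the log2 scale, and in MPP it was lower, at -0.68. The Ink4 sum was higher by 0.79, 1.84 and 0.37. Without subtraction the Cip/Kip values were 0.43, 0.69 and -0.91 and the Ink4 values 0.61, 1.61 and 0.23. These sizes rest on scaling from the counts as deposited. With scaling refitted to the background-subtracted counts, an alternative added after seeing the data that lowers every ratio by one amount within a population, the Cip/Kip values were 0.16, 0.31 and -1.39 in LT-HSC, ST-HSC and MPP. The Ink4 values became 0.01, 0.88 and -0.35, so that the direction in MPP turned. Shares within a library and the ratio of Cip/Kip to Ink4 do not depend on this scaling.

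**Figure D4:**
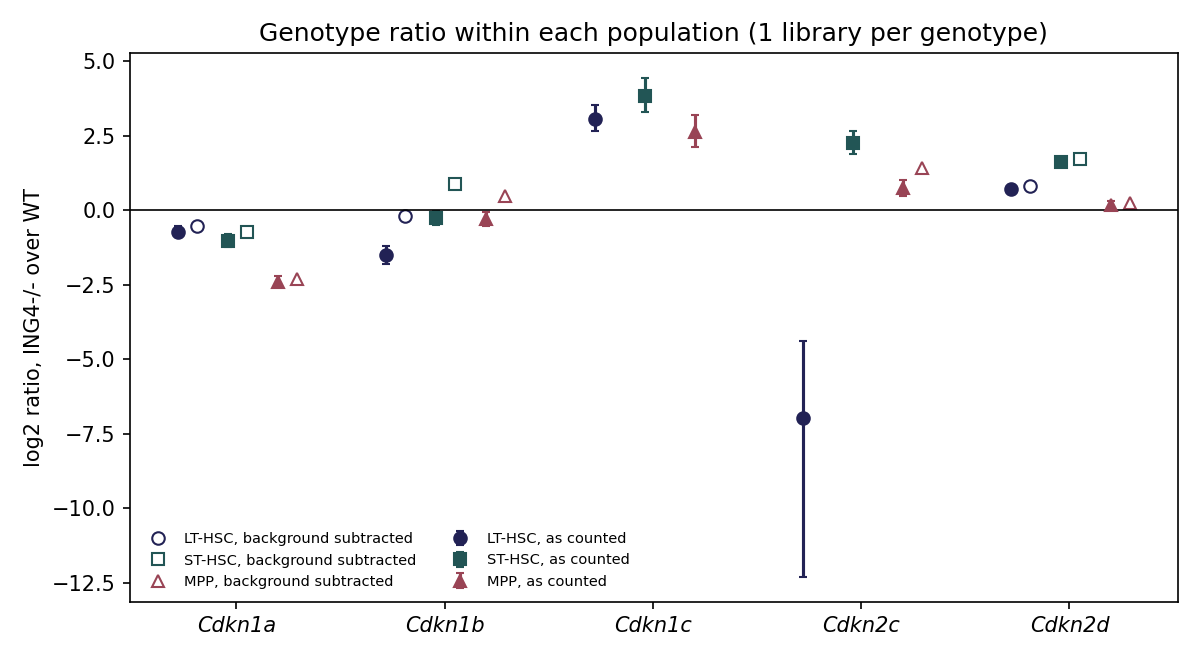
Log2 ratio of ING4-/- to WT of the 5 members counted in both genotypes within LT-HSC, ST-HSC and MPP, 1 library against 1, with filled points and 95% counting intervals for values as counted and open points for values after subtraction on unchanged scaling, left out where subtraction takes WT to about 0. As counted, Cdkn1c lies between 2.63 and 3.84 and Cdkn1a between -2.40 and -0.74, while Cdkn2c ranges from -6.97 to 2.26.

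Between populations no member was called, and neither was any of the 36170 genes tested (0%), with genotype as a term in edgeR. At an unadjusted p under 0.05 there were 564 genes for MPP against LT-HSC, 624 for ST-HSC against LT-HSC and 183 for MPP against ST-HSC. DESeq2 called 162 genes higher and 198 lower for MPP against LT-HSC, 96 and 135 for ST-HSC against LT-HSC and 0 for MPP against ST-HSC. For MPP against LT-HSC the values were -0.09 for Cdkn1a (SE 0.729), 0.70 for Cdkn1b (0.989), -0.90 for Cdkn1c (0.889), -2.42 for Cdkn2b (2.32), 3.19 for Cdkn2c (2.42) and -0.26 for Cdkn2d (0.423). For ST-HSC against LT-HSC they ran from -0.56 for Cdkn1a to 3.30 for Cdkn2c, and for MPP against ST-HSC from -3.08 for Cdkn2b to 0.47 for Cdkn1a. Cdkn2a was not tested. The small Cdkn1a value joins unlike genotypes. MPP exceeded LT-HSC by 0.69 on the log2 scale in WT, and the ratio was -0.98 in ING4-/-. Cdkn1b was 0.14 in WT and 1.36 in ING4-/-, and Cdkn2d -0.03 and -0.56. Cdkn1c was -0.70 in WT, where it is at background, and -1.14 in ING4-/-. These are single-library ratios without a test. In the ING4-/- LT-HSC, ST-HSC and MPP libraries, Flt3, a progenitor receptor, had 1, 991 and 10829 counts. Slamf1, a stem cell marker, had 3470, 888 and 299. Both follow the labels, but they were picked after their values were seen. Other markers of the same list of 8 did not run in 1 direction. Hlf had 7365, 4231 and 8715 counts, and Ly6a had 12558, 2049 and 5641.

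The pathway around the family was read from 4 lists with 50 genes, all tested, of which 9 were called higher and 2 lower (22.0%, against 64.6% of all genes tested). Cyclins and CDKs (12 genes, 2 higher, median 1.32) included Cdk1, the mitotic kinase, at 1.58 (SE 0.560, edgeR adjusted p = 0.0395), and Cdk4, the target of Ink4 proteins, at 1.47 (SE 0.358, edgeR adjusted p = 0.00800). Cdk4 had 1969, 3202 and 3754 counts in the WT LT-HSC, ST-HSC and MPP libraries and 15104, 31562 and 36243 in ING4-/-. Of Rb and E2F genes (13 genes, 2 higher, 1 lower, median 0.33), the activator E2f1 was called at 1.88 and the repressor E2f6 at 1.18. Rb1, the pocket protein that CDK4 phosphorylates, was called lower at -4.52 (SE 1.57, edgeR adjusted p = 0.0372). Its WT counts of 161, 217 and 198 compare with 135, 137 and 109 from background, and it had 0, 64 and 19 counts in ING4-/-. With population as a block neither Rb1 (-5.74, edgeR adjusted p = 0.0664) nor E2f1 (1.90, edgeR adjusted p = 0.0740) was called.

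Among 11 genes listed under the turnover of Cip/Kip proteins, 4 were higher and 1 lower (median 0.64). Skp1a, a core part of SCF ubiquitin ligases, was called at 1.88 and Cks1b, the cofactor by which Skp2 takes up p27, at 1.67. Ddb1, an adaptor of CUL4 ligases, was called at 1.26. Fbxw7, which is on the list but is the ligase subunit that recognises cyclin E, was lower at -4.49 (SE 1.01, edgeR adjusted p = 0.00537). It had 406, 520 and 466 counts in WT LT-HSC, ST-HSC and MPP, above the 158, 160 and 128 of background, and 7, 129 and 72 in ING4-/-. Among 14 transcriptional regulators of the inhibitor genes, 1 was called higher (median 0.46), Trp53, which encodes p53, at 1.04 (SE 0.211, edgeR adjusted p = 0.00321). With background subtracted, 47 list genes were tested and 2 were called higher and 1 lower (6.38%, against 44.3% of all genes). The higher ones were Skp1a, at 1.09, and E2f2, an activator E2F, and the lower was Fbxw7, at -4.79. E2f2 had 30, 93 and 70 counts in the WT LT-HSC, ST-HSC and MPP libraries against 109, 111 and 88.4 from background, so that subtraction leaves no WT count and its fitted size is set by the prior count. With counts as deposited E2f2 was not called (0.67, edgeR adjusted p = 0.414). Trp53, Cdk1, Cdk4 and E2f1 were not among them.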

How the data were processed

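RNA from sorted LT-HSC, ST-HSC and MPP of WT and ING4-/- mice was sequenced by a service provider. The authors deposited whole-number counts per gene for each library, on build mm10, together with exonic lengths. The aligner, counting tool and strand setting are not given in the sources used here. Of 49315 identifiers, 49056 matched GENCODE vM21. Depth per library is given with the results, and the intervals of counts cover counting error only. No libraries within a genotype agreed within sampling noise.

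Genotypes were compared in R 4.3.3 with edgeR 4.0.16 (quasi-likelihood test, TMM scaling, filterByExpr, Benjamini-Hochberg adjustment over all genes tested), all 6 libraries entering with the 3 populations as replicates, as in the study's design. Population contrasts had genotype as a term. Standard errors were obtained from the F statistic, as the absolute log2 value over its square root. DESeq2 1.42.0 was an alternative. RPKM used TMM effective library sizes and exonic length. Background was the summed counts per kb of receptor genes, multiplied by a gene's exonic length and subtracted down to 0. Other alternatives were other scalings, filters and background genes, trends on length or GC content, a population block, and leaving out libraries or members. The fits that joined background subtraction to the block or to a minimum of 10 counts in every library, the scaling refitted to background-subtracted counts, and the count of near-empty genes, were added after seeing the data.

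Deviations from the genotype means correlated only weakly between samples of the same population. The correlations were 0.143 in LT-HSC, 0.110 in ST-HSC and 0.121 in MPP over 9673 genes, and unlike populations were not compared. The populations pair the libraries by label, and the reported test does not use this pairing. Blocked values are given for reported calls of members and list genes that the block removes.

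Named genes were the 7 members, Ing4, the 2 highest and 2 lowest called genes of each pathway list, and the 3 protein-coding genes most like each member. Skp1a, E2f2 and Fbxw7 in the background-subtracted fit, Ccna2, Ccnb1 and Ccnb2 in the blocked fit, Flt3, Slamf1, Hlf, Ly6a and markers at 0 were named after their values were seen. The result of 1 marker list is not reported here. The members and lists were chosen with earlier results of these data known.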

Additional observations from a re-analysis of the deposited data

Results flagged for a closer look

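Cdkn1a went in opposite directions along the populations of the 2 genotypes. Its log2 ratio of MPP to LT-HSC was 0.69 in WT and -0.98 in ING4-/-, a difference of -1.66. Each ratio compares 1 library with 1 library, and the difference was not tested.

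Cdkn2c went in opposite directions between genotypes in different populations. Its log2 ratio of ING4-/- to WT was -6.97 in LT-HSC, 2.26 in ST-HSC and 0.74 in MPP, a span of 9.23 between the highest and the lowest. It rests on 1 count in the ING4-/- LT-HSC library and on WT counts near background, and the difference was not tested.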

How the results depend on the processing

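Of 303 alternative values, 212 kept their direction and their side of the threshold or their size, 66 moved, 10 weakened, 5 strengthened and 10 reversed. Causes were not tested. WT background and depth limit every level near background, Cdkn1c, Cdkn1b and Cdkn2c in WT above all, and they cannot be told apart from genotype. Cdkn1c was higher in all 20 alternatives that tested it and called in 19. Cdkn1a was lower in all 21 and called in 12. No member was called between populations in any alternative.

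Leaving out 1 library gave 1705 to 2804 genes called higher and 18189 to 20464 lower (2475 and 17566 as reported), 1 to 3 members higher and 0 to 1 lower, 4 to 14 list genes higher and 1 to 3 lower, and log2 fold changes of -1.70 to -1.17 for Cdkn1a, -0.76 to -0.20 for Cdkn1b, 2.98 to 3.55 for Cdkn1c, 0.51 to 1.77 for Cdkn2c and 0.53 to 1.21 for Cdkn2d. Cdkn2d was called without the ING4-/- LT-HSC library (1.03, edgeR adjusted p = 0.0472) and without the ING4-/- MPP library (1.21, edgeR adjusted p = 0.0131).

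Upper-quartile scaling put the median gene at -6.35 rather than -6.85. It gave 4556 of 31001 genes higher and 17093 lower, 2 members higher and 0 lower, and 22 list genes higher and 1 lower. Values were -0.80 for Cdkn1a, 0.028 for Cdkn1b and 1.53 for Cdkn2d. DESeq2 size factors gave 1342 genes and 4 list genes higher with the median gene at -7.17, and the DESeq2 test 1518 and 4. With no filter 2741 of 44670 genes were called higher and 23541 lower. Of the members, 2 were then higher and 2 lower (Cdkn1a and Cdkn2b), with Cdkn2d at 1.01. A minimum of 10 counts in every library gave 803 genes higher and 936 lower, and 2 list genes higher and 1 lower, and Cdkn2c was not tested. Subtracting background gave 1108 higher and 7646 lower, or 1176 and 7795 with Krtap, Defb and Tas2r genes as background, and in both cases 2 list genes higher and 1 lower. Removing a trend on length gave 664 genes and 2 list genes higher and Cdkn2d at -0.22, and a trend on GC content 1168 and 2. Without both LT-HSC libraries 2528 of 34080 genes and 14 list genes were higher. Without both ST-HSC libraries 1540 of 31484 genes were higher and 18002 lower, with 0 members lower and Cdkn1a at -1.52. Without both MPP libraries 1625 were higher and Cdkn1a stood at -1.03.

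With the replicate block on population, 1999 of 31001 genes were called higher and 16880 lower. In that fit 0 members and 1 list gene were called lower, with Cdkn1a at -1.38 and Cdkn2c at -0.12. Among list genes the calls of Rb1 and E2f1 were lost and Ccna2, Ccnb1 and Ccnb2 were called higher. The block changed no other call of a member or list gene. Joined to background subtraction, the block left 181 genes higher and 172 lower, with 0 members and 0 list genes in either direction, Cdkn1a at -2.0 and Cdkn1c at 9.32. Subtraction joined to the minimum of 10 counts gave 321 higher and 472 lower, 0 members higher, and 1 list gene higher and 0 lower, with Cdkn1c and Cdkn2c not tested.

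With scaling refitted to background-subtracted counts the Ink4 sum in MPP differed by -0.35 between genotypes. The log2 ratio of Cip/Kip to Ink4 in LT-HSC differed by -0.18 between genotypes without subtraction. With no division by length the difference was -0.0025 and the means were -0.38 in WT and -0.98 in ING4-/-. Without Cdkn1a the means were -4.16 and -1.97 and the differences 2.89, 1.75 and 1.93 in LT-HSC, ST-HSC and MPP. Without Cdkn1c the ING4-/- mean was -2.86 and the differences -1.29, -2.18 and -2.07. Without Cdkn2d the ING4-/- mean was 4.81 and the MPP difference -2.08, and no value could be had in WT LT-HSC or ST-HSC, where the remaining Ink4 sum is 0.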

Other observations

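The genes whose CPM on the log2 scale followed each member most closely over the 6 libraries were sought among 9013 protein-coding genes that reached 10 counts in each library. For Cdkn1a they were Pik3r5 (Pearson's r = 0.989), Fnbp1 (0.984) and Sp100 (0.982). For Cdkn1b they were Dot1l (0.999), Tmc4 (0.995) and Cflar (0.994). Cdkn1c was followed by 2410004B18Rik (0.999), Abcg2 (0.998), which encodes the transporter behind the side population of stem cells, and Ndufaf8 (0.997). Cdkn2d was followed by Slc35a1 (0.999), Rnf25 (0.987) and Capza1 (0.987). Cdkn2c, Cdkn2a and Cdkn2b had too few counts for such a search. The points share libraries, depth and the WT background, and with 6 libraries in 2 genotypes the highest of so many correlations is close to 1, so the values are a description only.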
